A study of Mus musculus with 8 samples.

Results

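The Sox genes encode transcription factors that share an HMG box, a domain that binds the minor groove of DNA and bends it. Of this family, 9 genes were examined, namely Sox2, Sox4, Sox5, Sox6, Sox8, Sox9, Sox11, Sox12 and Sox13. They were taken by symbol, with every non-control probe whose RefSeq accession maps to one of them, which gave 12 probes. Of the 9 genes, 5 had a probe well above background on at least 4 of 8 arrays and were tested among 13539 genes, and 4 had none and were not tested. Primary spheres came from the superior mesenteric ganglion, a sympathetic ganglion, of 3-week-old 129+Ter/SvJcl mice that were TH-MYCN hemizygote (TH-MYCN+/-). In this transgene a tyrosine hydroxylase promoter drives MYCN, so all samples of both media carry it, and a wild-type ganglion is not analysed here. Dissociated cells of each animal were divided between medium with retinoic acid (RA) and RA-free medium and grown for 8 days, giving 4 arrays of each medium from 4 animals. Each array is of bulk RNA, in which fewer cells of a type and less RNA per cell cannot be told apart.

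Sox proteins are sorted into groups by the sequence of their HMG box, and members of one group often act redundantly. Sox2 is a SoxB1 protein of neural stem and progenitor cells. Sox4, Sox11 and Sox12 form the SoxC group, which acts in proliferating sympathetic neuroblasts and in newly born neurons. Sox5, Sox6 and Sox13 form the SoxD group, which lacks an activation domain of its own and works by pairing with other factors. Sox8 and Sox9 belong with Sox10 to the SoxE group of the neural crest, glia and cartilage.

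The SoxC genes are shown first by the DNA before their starts, because 4 of their 5 probes were called lower in the comparison. Of all tested probes, 26.8% were called lower and 63.4% in either direction. The windows are the 250 bases before the RefSeq start in GRCm38.p6, 5′ to 3′ on the strand of the gene, and capitals mark CCAAT and GGGCGG on either strand.
Sox4, chr13:28953700-28953949, minus strand: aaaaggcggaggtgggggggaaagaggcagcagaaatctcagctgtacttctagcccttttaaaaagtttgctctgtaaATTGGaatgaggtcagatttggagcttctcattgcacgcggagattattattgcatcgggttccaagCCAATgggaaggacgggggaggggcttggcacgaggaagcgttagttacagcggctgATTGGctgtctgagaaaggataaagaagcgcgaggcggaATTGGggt
Sox11, chr12:27342719-27342968, minus strand: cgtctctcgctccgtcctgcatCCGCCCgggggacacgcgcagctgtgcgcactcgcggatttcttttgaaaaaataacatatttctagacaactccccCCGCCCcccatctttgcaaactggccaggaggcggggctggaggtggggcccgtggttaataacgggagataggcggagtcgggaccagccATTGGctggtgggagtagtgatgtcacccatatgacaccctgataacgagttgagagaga
Sox12, chr2:152398047-152398296, minus strand: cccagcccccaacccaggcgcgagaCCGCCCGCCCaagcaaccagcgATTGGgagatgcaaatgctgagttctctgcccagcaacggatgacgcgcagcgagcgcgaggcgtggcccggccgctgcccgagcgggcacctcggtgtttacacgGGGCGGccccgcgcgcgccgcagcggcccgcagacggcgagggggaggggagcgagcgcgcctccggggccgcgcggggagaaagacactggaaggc
CCAAT, which the factor NF-Y binds, was found 4 times before Sox4 and 1 time each before Sox11 and Sox12, against 33.8% of all 32851 such windows with at least 1 match. GGGCGG, a letter run bound by Sp1, was found 2 times before Sox11 and 3 times before Sox12, against 32.7% of all windows. In the Sox12 window a pair of GGGCGG matches overlap each other. AGGTCA, a core element of retinoic acid receptors and other nuclear receptors, was found 1 time before Sox4, within 14.0% of all windows. CACGTG, the E-box that MYCN and MAX bind, was not in these 3 windows, and 6.02% of all windows held it. AACAAT, the core of a SOX site, was not in them either, against 9.42% of all windows. The same held for the TATA box TATAAA, found in 12.4% of all windows. All letters were searched on both strands. The GC content was 50.8% for Sox4, 58.0% for Sox11 and 74.4% for Sox12, against a median of 52.4% over all windows.

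The comparison asks how Sox transcripts differ between spheres grown without and with retinoic acid, RA-free growth being the condition that the series describes as favourable for TH-MYCN neuroblasts. Without RA the SoxC genes Sox11 and Sox12 fell, Sox12 by 0.67 and Sox11 by 0.24 on the log2 scale, while the SoxD gene Sox13 rose by 0.46. Sox4 had a change of −0.35 and did not pass the test, and Sox5 one of 0.07 by its brighter probe. All changes are RA-free minus RA-containing. A level is the log2 processed intensity of a probe minus that array's 75th percentile, the change is fitted by limma with the animal as a block, and genes with a Benjamini-Hochberg adjusted p under 0.05 over all 13539 genes are called changed. Of the 5 tested members, 1 was called higher and 2 lower, while 64.3% of all tested genes were called, 36.1% higher and 28.2% lower. The members therefore were not called more often than the table as a whole. Their median change was −0.24, against 0.07 over all tested genes and a median size of 0.425.

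**Figure D1:**
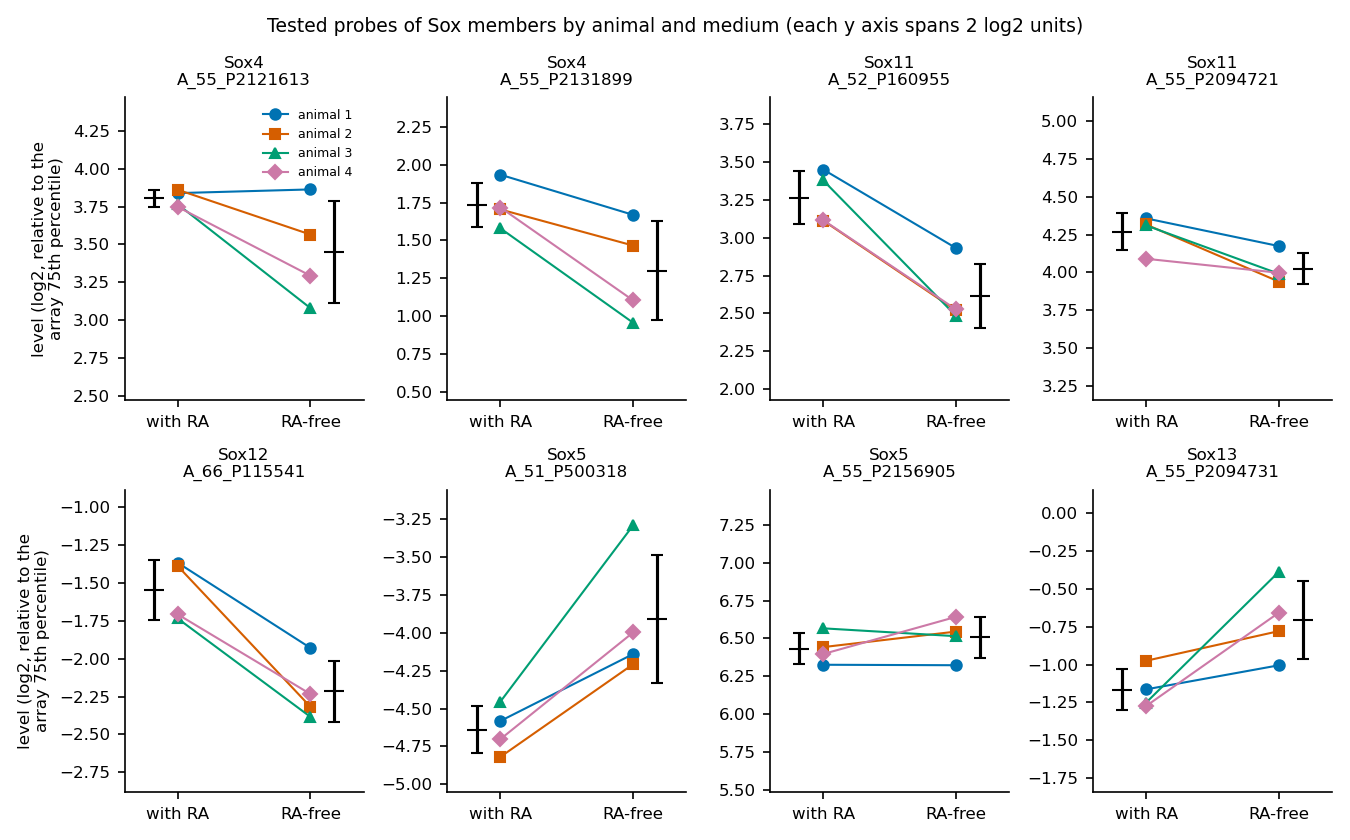
Levels (y axis, log2 relative to the array's 75th percentile) of the 8 tested probes of Sox4, Sox11, Sox12, Sox5 and Sox13 in both media (x axis), with a line for each of 4 animals and black bars for the mean and SD; each y axis spans 2 log2 units. Of the 5 SoxC probes, which stand for 3 genes, 4 probes slope down in all 4 animals. The brighter Sox4 probe slopes down in 3 of 4 animals. Sox13 slopes up in all 4 animals, and the brighter Sox5 probe has means of 6.43 and 6.51. Of all tested probes, 72% moved the same way in all 4 animals.

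The 8 arrays were on 1 slide. Their 75th percentiles lay between 228 and 306 intensity units against a median local background of 26 to 29, and 48.5% to 55.3% of non-control spots were well above background. All 11 listed sympathoadrenal genes, Th among them, were well above background on all 8 arrays, as the labelled origin implies. No non-control spot was saturated.

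Sox12, the SoxC protein with the weakest transactivation, was measured by 1 probe (A_66_P115541, NM_011438). With RA its level was −1.37, −1.39, −1.73 and −1.71 in animals 1 to 4, and without RA −1.93, −2.32, −2.38 and −2.23. Every RA-free array lay below every RA-containing array, as was so, in one direction or the other, for 53.3% of all tested genes. The change was −0.67 (SE 0.09, adjusted p = 0.00164 by limma), a 1.59-fold lower level in RA-free medium, and it was lower in 4 of 4 animals. With normexp and quantile normalization the change was −0.38 and was called. Under spike-in scaling, where all genes share an SE of 0.27, the change of −0.51 was not called (adjusted p = 0.119).

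Sox11, a factor of neuronal differentiation that is abundant in neuroblastoma, was measured by 2 probes, both of NM_009234. The brighter probe (A_55_P2094721) stood at 4.36, 4.32, 4.31 and 4.09 with RA in animals 1 to 4 and at 4.17, 3.94, 3.99 and 4.00 without. The RA-containing array of animal 4 lies below the RA-free array of animal 1, so the groups overlap, while the RA-free level is the lower within each animal. Its change was −0.24 (SE 0.08, adjusted p = 0.0391 by limma). This call is a narrow one: it was lost without any one animal, with adjusted p-values of 0.0785, 0.149, 0.0880 and 0.0577 by limma for animals 1 to 4 left out. It was also lost without the block for the animal pairing (limma adjusted p = 0.0502), under median and spike-in scaling and with no filter on dim probes. The other probe (A_52_P160955) stood at 3.45, 3.11, 3.38 and 3.12 with RA and at 2.93, 2.52, 2.48 and 2.53 without. Here the media did not overlap, as was so for 53.3% of all tested genes. In a fit over all 17850 tested probes its change was −0.65 (95% interval −0.87 to −0.43, limma adjusted p = 0.00166), against −0.24 (95% interval −0.45 to −0.04, limma adjusted p = 0.0425) for the brighter probe. The probes of Sox11 thus share a direction and differ in size.

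Sox4, a SoxC factor that supports survival of neural and sympathetic progenitors, also had 2 probes, both of NM_009238. The brighter (A_55_P2121613) stood at 3.84, 3.86, 3.77 and 3.75 with RA and at 3.86, 3.57, 3.08 and 3.29 without. The RA-containing arrays lie close together, while RA-free arrays spread widely, with animal 1 as high as with RA and animal 3 lowest. Its change of −0.35 (SE 0.13, adjusted p = 0.0512 by limma) did not pass, and without animal 1 it was −0.48 and passed (limma adjusted p = 0.0176). Sox4 passed in 7 of 14 alternative settings, with changes from −0.50 to −0.20 over all 14. The other probe (A_55_P2131899) stood at 1.93, 1.70, 1.58 and 1.72 with RA and at 1.67, 1.47, 0.96 and 1.104 without, lower in 4 of 4 animals. Its change was −0.44 (95% interval −0.69 to −0.18, limma adjusted p = 0.0119 over all tested probes). As a description over the group, the 5 SoxC probes had changes from −0.67 to −0.24, and 4 of them were called lower, beside 26.8% of all tested probes called lower, 36.6% called higher and 63.4% called in either direction. In 4 of these 5 probes all 4 animals moved the same way, as did 72% of all tested probes. All 5 kept a negative change under each of 5 other scalings, with 3 called under median scaling, 5 under both quantile settings and under the 75th percentile of detected probes, and 0 under spike-in scaling, where limma adjusted p-values ran from 0.121 to 0.826.

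Sox13, a SoxD protein that can bind the Wnt effectors of the TCF family, was measured by 1 probe (A_55_P2094731, NM_011439). With RA it stood at −1.16, −0.98, −1.25 and −1.27 in animals 1 to 4, and without RA at −1.005, −0.78, −0.39 and −0.66. It was higher without RA in 4 of 4 animals, but the size differed: 0.16 and 0.20 in animals 1 and 2 against 0.86 and 0.62 in animals 3 and 4. The media overlapped, since RA-containing animal 2 lay above RA-free animal 1. The change was 0.46 (SE 0.14, adjusted p = 0.0304 by limma), a 1.37-fold higher level. The call was lost without animal 3, where the change was 0.32 (limma adjusted p = 0.0737), and without animal 4, where it was 0.41 (limma adjusted p = 0.104). It was also lost with the 75th percentile of detected probes (0.35, limma adjusted p = 0.0730), with spike-in scaling (0.62, limma adjusted p = 0.0546) and with no filter on dim probes (limma adjusted p = 0.0657). The difference between the changes of Sox12 and Sox13 does not depend on how arrays are scaled by a constant. It was −0.72, −1.13, −1.51 and −1.14 in animals 1 to 4. The pair holds the lowest and the highest change of the tested members and so was picked from these same values. A negative difference in each animal is therefore a description and not a test.

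Sox5, a SoxD factor of chondrocytes and neural crest derivatives, was the member whose probes went apart, although both carry NM_011444. The probe A_55_P2156905 was among the brighter spots of the arrays, at 21629 to 26623 intensity units. It stood at 6.33, 6.44, 6.57 and 6.40 with RA and at 6.32, 6.55, 6.51 and 6.64 without. The change was 0.07 (95% interval −0.13 to 0.27, adjusted p = 0.457 by limma), with 2 animals up and 2 down. Under quantile normalization of the processed signal it was −0.37, and under normexp with quantile normalization −0.36, both called lower, so its direction depends on the normalization. The probe A_51_P500318 lay at 10.4 to 26.8 intensity units and was well above background on 1 of 4 RA-containing and 3 of 4 RA-free arrays. It stood at −4.58, −4.82, −4.45 and −4.70 with RA and at −4.14, −4.21, −3.29 and −3.996 without. The media did not overlap, as for 53.3% of all tested genes. The change was 0.73 (95% interval 0.41 to 1.053, limma adjusted p = 0.00422 over all tested probes), or 0.15 and not called (limma adjusted p = 0.0685) under normexp with quantile normalization. Since most RA-containing spots of this probe were below the detection call, the size of its change is uncertain. The lowest level called well above background ran from −4.71 to −4.31 on RA-containing and from −4.65 to −3.89 on RA-free arrays, and its part in the difference was not tested. Both probes were assigned to Sox5 by their accession alone. Which transcript either probe detects, and whether the far brighter one reports Sox5, was not checked.

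**Figure D2:**
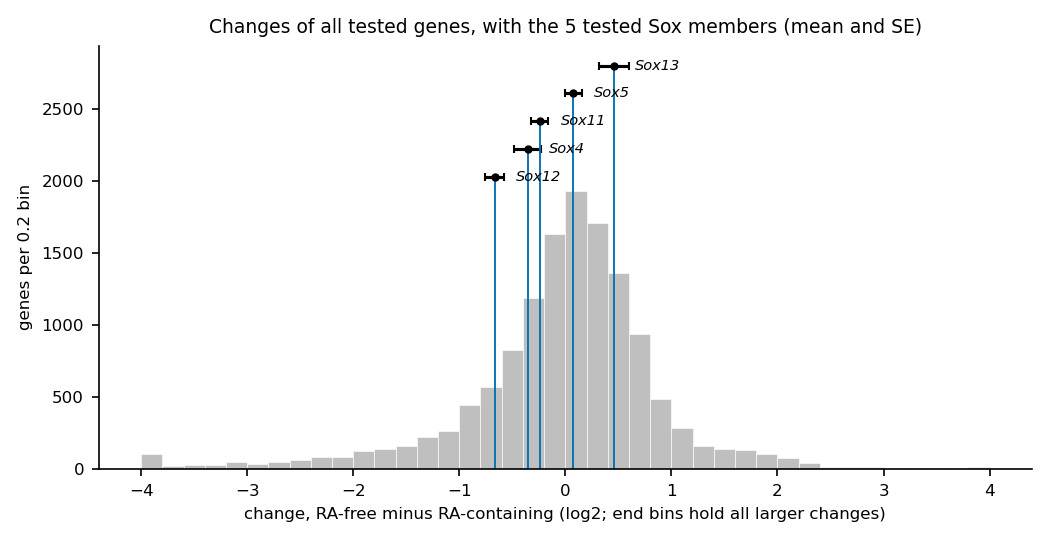
Histogram of the changes (x axis, log2, RA-free minus RA-containing) of the 13539 tested genes in bins of 0.2, with each of the 5 tested Sox members as a vertical line topped by its mean and SE; the heights of the lines only separate the labels. All 5 members lie between −0.67 and 0.46, in the dense middle of the distribution.

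Among all tested genes, the change of Sox12 lay at percentile 16.7 and that of Sox13 at percentile 75.1. By size of change Sox12 was at percentile 68.1, Sox13 at 53.0, Sox4 at 43.1, Sox11 at 31.3 and Sox5 at 10.2. The changes of Sox12 and Sox13 were thus larger in size than the median change, and those of Sox4, Sox11 and Sox5 smaller.

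The other 4 members were not well above background. Sox2, the SoxB1 factor of neural progenitors, had 1 probe (A_52_P307739) with 6.78, 4.50, 2.84 and 3.26 intensity units with RA and 9.15, 5.58, 16.6 and 5.93 without. No array called it well above background, and the highest value, in RA-free animal 3, was close to the lowest intensity called well above background, which was at most 15.9 units on any array. Sox6, a SoxD factor, lay between 2.72 and 4.46 units on all 8 arrays. Sox8, a SoxE factor, lay between 2.86 and 4.02 units except in RA-containing animal 1, at 6.97. Sox9, the SoxE factor of cartilage and of early neural crest, was printed in 10 spots per array. Its spots averaged 2.81 to 3.61 units with RA and 4.19, 4.67, 4.32 and 12.1 without, and 1 of the 10 spots of RA-free animal 4 was called well above background. That spot was an outlier on its array and is left out of the level. No fold is given for these 4 genes, since both media are at background. Over the whole array 38.3% of 55681 non-control probes were below background on all 8 arrays. Among the 27235 probes that matched a symbol, as the member probes do, the share was 27.9%.

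**Figure D3:**
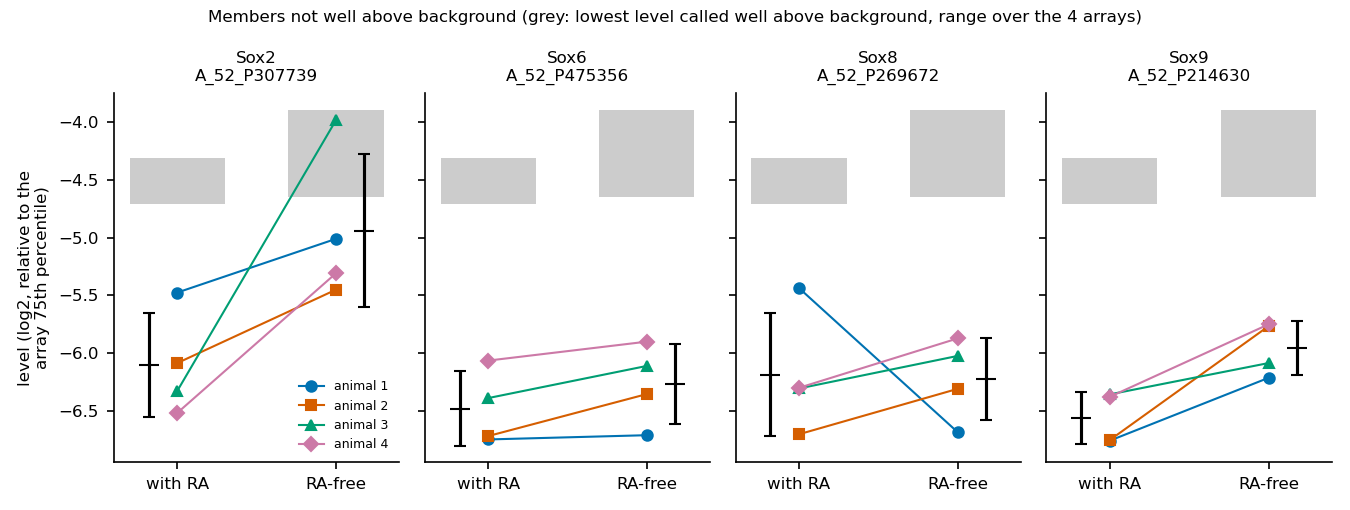
Levels (y axis, log2 relative to the array's 75th percentile) of the probes of Sox2, Sox6, Sox8 and Sox9 in both media (x axis), a line per animal, with black bars for the mean and SD and grey bands for the lowest level called well above background on the 4 arrays of each medium. All points lie below the bands except Sox2 in RA-free animal 3, which lies within the band at −3.98 and was not called.

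The rest of the family was read in the same way. Of 10 other Sox genes with a probe, 3 were tested, and Sox3, Sox7, Sox14, Sox15, Sox17, Sox18 and Sox30 were not above background. Sox10, the SoxE regulator of Schwann and satellite glia, stood at −0.54, −0.85, −0.90 and −0.93 with RA and at −0.84, −0.87, −1.09 and −0.90 without. Its change of −0.12 (95% interval −0.33 to 0.09 over all tested probes, adjusted p = 0.257 by limma) did not pass. Sox21, a SoxB2 factor, had a change of −0.03 (adjusted p = 0.853 by limma). Sox1, a SoxB1 factor, had one of −0.02 (SE 0.27, adjusted p = 0.954 by limma), and its other probe one of 0.39 (limma adjusted p = 0.133 over all tested probes). The directions of Sox10, Sox21 and Sox1 turned under spike-in scaling, while Sox10 was called lower when arrays were scaled by the 75th percentile of detected probes, at −0.23 (limma adjusted p = 0.0499). Sox1ot, a long noncoding RNA whose gene overlaps Sox1, was picked after its values were seen. Its brighter probe passed the detection call on 4 of 4 RA-containing arrays, from −2.14 to −1.56, and on 0 of 4 without RA. It was at least 5.39-fold lower without RA, counting RA-free arrays at the lowest level called well above background, and its other probe at least 1.47-fold lower. Since it was chosen for its values and passed the filter through RA-containing arrays alone, no test is given. Sox1 itself was not called.

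Genes with patterns most like those of the members were sought by the root-mean-square difference over the 8 arrays after centring each gene. For Sox12 these were Agrn (difference 0.05, change −0.66), Arfgef3 (0.07, −0.75) and Alg2 (0.08, −0.63). For Sox13 they were Rwdd1 (0.08, change 0.44), Tmem41a (0.08, 0.36) and Slc16a13 (0.09, 0.57). For Sox4 they were Arrdc2 (0.05, change −0.28), Ndrg1 (0.05, −0.31) and Rab3gap2 (0.06, −0.36). With 8 arrays and 13539 genes, near matches are easily found, and nothing is read from them.

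Genes known to act below or beside Sox factors were taken from fixed lists, again beside the background of 36.1% called higher and 28.2% lower. Of 7 genes linked with SoxC, 4 were called higher and 2 lower, with a median change of 0.57, and the directions were mixed. Called higher without RA were Prox1 (2.34), a homeobox factor, Isl1 (2.00), a factor of sympathetic neurons, Ezh2 (1.58), the Polycomb methyltransferase, and Tead2 (0.57). Dcx (−1.10), the microtubule protein doublecortin of young neurons, and Tubb3 (−0.42) were called lower, and Map2 (−0.12) did not pass.

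Of 13 glial genes that depend on SoxE factors, 9 were tested, 5 were called lower and the other 4 did not pass, with a median change of −0.40. Cnp, a myelin enzyme, had a change of −1.18, Mag, a myelin glycoprotein, −0.98, Pmp22, a peripheral myelin protein, −0.79, and Mbp, myelin basic protein, −0.59. Erbb3, Gjc3 and Cdh19 were among the listed genes not above background. Of 14 cartilage matrix genes, which Sox5, Sox6 and Sox9 switch on in chondrocytes, 7 were tested, with 1 called higher and 6 lower. Col9a1, a chain of collagen IX, rose from −3.70 ± 0.36 to 0.82 ± 0.67 (SD, n = 4; adjusted p = 0.000205 by limma). Its partner chain Col9a2 fell by 1.37 and Chadl, a chondroadherin-like protein, fell by 1.57. Col2a1, the main collagen of cartilage, passed the detection call on 4 of 4 arrays with RA and 0 of 4 without, and was at least 1.43-fold lower without RA. It passed the filter through RA-containing arrays alone, so nothing is read from its place among the 6 called lower.

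Of 10 neural progenitor genes linked with Sox2, 8 were tested, with 4 called higher, 2 lower and a median change of 0.41. Pou3f3 (2.91, well above background on 2 of 4 RA-containing arrays) and Pou3f2 (1.46), POU factors that partner SoxB1 proteins, and Hes5 (0.84), a Notch target, rose, while Fabp7 (−0.99), a radial glial fatty acid carrier, was lower. Of 11 partners and regulators of Sox proteins, 8 were tested and 3 called higher, namely Ctbp2 (0.38), a corepressor, Ctnnb1 (0.35), beta-catenin, and Wwp2 (0.26), a ubiquitin ligase of Sox2. Of the 11 sympathoadrenal genes 5 were called higher and 2 lower. Among those higher, changes were 3.59 for Th, tyrosine hydroxylase, 2.11 for Gata2 and 1.64 for Insm1, both transcription factors. Those called lower were Dbh, with a change of −1.53, and Hand2, with −0.39. Since most of these genes moved, their counts show only how Sox changes stood among them.

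Markers of other cells were counted beside the same background, with 64.3% of all tested genes called, 36.1% higher and 28.2% lower. Of 10 glial markers 7 were tested, 2 were called lower, namely Prx and Mag, and the log2 of the summed linear levels of the tested markers, here the summed level, was 1.91 to 2.02 with RA and 1.47 to 1.74 without. Of 10 fibroblast markers 7 were tested, 1 was called higher and 4 lower, and the defining markers Lum, Pdgfra and Pdgfrb were not above background. Col1a2 (1.03) was called higher, and Fap (−1.74), Postn (−1.11), Col3a1 (−0.74) and Dcn lower, while Thy1 (0.004) and Col1a1 (−0.28) did not pass. Summed levels were 3.30 to 3.75 with RA and 3.24 to 3.77 without. They rest mostly on Thy1, Postn and Col1a2, which differed in direction. Of 7 immune markers 4 were tested and 3 called lower, and Ptprc and Cd14 were not above background. Summed levels were 4.18 to 4.52 with RA and 3.79 to 4.00 without. They rest mostly on Itgam, called lower, with means of 4.23 with RA and 3.72 without. Csf1r (change 0.02) was not called. Dcn of the fibroblast list and Adgre1 and Aif1 of the immune list were among those called lower. Each was well above background on 4 of 4 RA-containing and 0 of 4 RA-free arrays. They passed the filter through RA-containing arrays alone, so nothing is read from these calls. Of 6 melanocyte markers 3 were tested and 1, Mlana, was called higher, with summed levels of −1.34 to −1.01 with RA and −1.43 to −0.54 without. Of 5 endothelial markers 2 were tested and 1, Pecam1, was called lower, while Cdh5, Tek and Tie1 were not above background. Summed levels were 3.01 to 3.32 with RA and 2.99 to 3.23 without. They rest mostly on Kdr, which was not called and had means of 3.11 with RA and 3.09 without. Those of Pecam1 were −3.07 and −3.41. The part of these cells in the Sox changes was not tested.

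**Figure D4:**
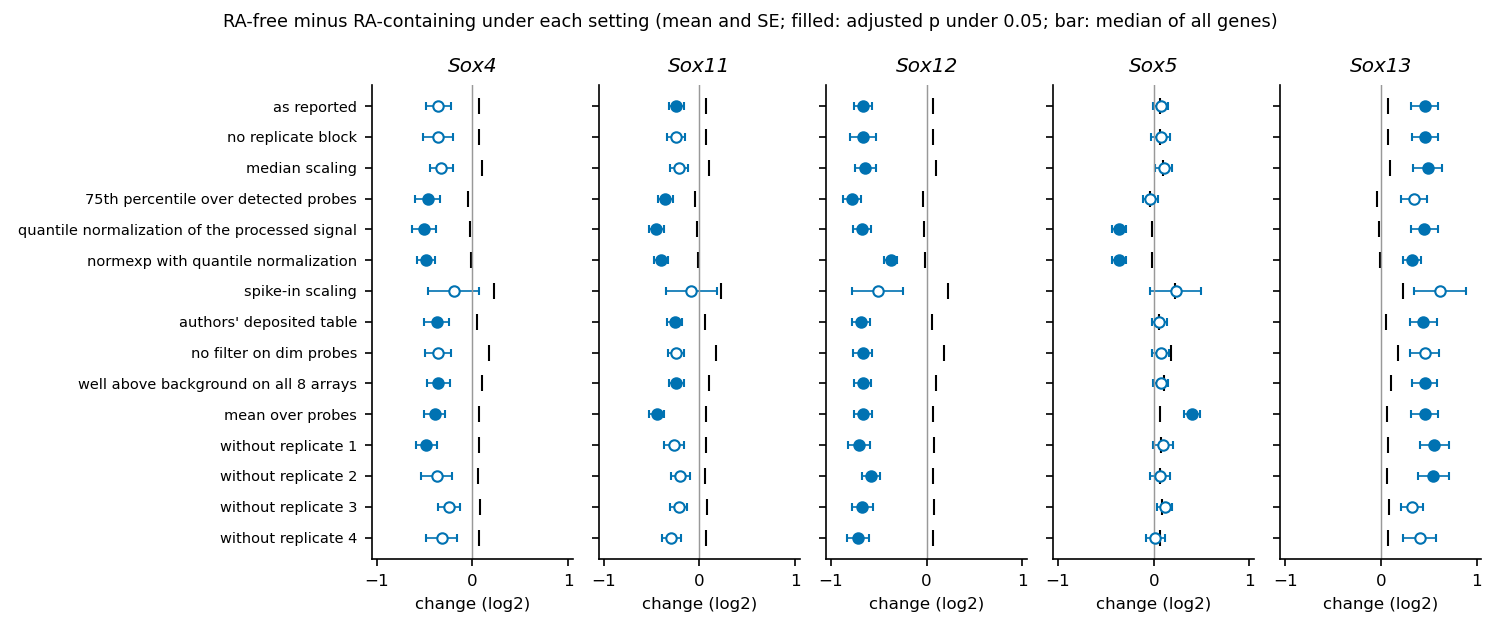
Change (x axis, log2, RA-free minus RA-containing, mean and SE) of Sox4, Sox11, Sox12, Sox5 and Sox13 as reported and under each of 14 alternative settings (y axis), filled where the adjusted p is under 0.05, with a short bar at the median change of all genes. Sox12 is filled in 13 of 14 alternatives, Sox4, Sox11 and Sox12 stay left of 0 and Sox13 right of it, while Sox5 crosses 0.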

How the data were processed

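Expression was measured with 1-colour Agilent arrays of design 028005. Per the file headers, the authors extracted spot intensity with Agilent Feature Extraction 11.5.1.1 and an mm9 annotation, and their software had subtracted background and spatial trends from it. Flags of spots well above background, outlier and saturated spots are deposited per spot in other columns. The authors' deposited table of log2 values matched the log2 processed intensities centred per probe (lowest correlation 0.9999), with column medians of −0.23, −0.22, 0.02 and −0.01 for RA-containing and −0.07, 0.01, 0.17 and 0.20 for RA-free arrays 1 to 4; its exact scaling stays unknown.

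Outlier spots were dropped, log2 processed intensities were set relative to the array's 75th percentile and spots of a probe averaged. A probe is well above background on an array where at least 50% of its spots are. Accessions were named through RefSeq tables of GRCm38.p6, where 27235 of 55681 probes matched a symbol; promoter windows come from RefSeq on the same build, with 8 of 9 members matched. The brightest tested probe stands for a gene, and all tested probes were also fitted together. Limma 3.58.1 in R 4.3.3 was fitted two-sided with the animal as a block and checked on simulated data. That cells of 1 ganglion were divided between media is stated in the series text; same-numbered arrays deviated together, with correlations of 0.52, 0.30, 0.19 and 0.33 for animals 1 to 4. The lowest and highest value or each array's value is given with SE or SD; the number of arrays limits the precision.

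Named are all members with every probe, other Sox genes, the 3 genes most like each of the 3 members with the largest change, and in each list at most the 4 called genes that changed most. In the sympathoadrenal list the genes called lower are named too, and the list linked with SoxC is named in full. All tested genes of the fibroblast, immune and endothelial marker lists are also named. Members and lists were chosen with earlier results of these data known. Alternatives were other scalings, normexp with an offset of 50 on the median signal (the mean signal was not used here), other filters on dim probes, the mean over probes, the deposited table, no block, and each animal left out.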

Additional observations from a re-analysis of the deposited data

Results flagged for a closer look

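The second probe of Sox11 (A_52_P160955) had 1 RA-free array apart from the rest: animal 1 stood at 2.93 and the other 3 at 2.48 to 2.53. Its level was still below those of all RA-containing arrays. It was the only one of 24 groups of 4 arrays examined, 1 for each member probe and medium, with a gap this large for its range (Dixon's test), and chance gives about 1 in 20.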

How the results depend on the processing

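The count of called Sox members moved with the processing, and the cause was not tested beyond what each setting changes. In place of 1 higher and 2 lower, 0 were called higher with the 75th percentile of detected probes and under spike-in scaling by limma (1 higher at an unadjusted p under 0.05 in each), and 2 with no filter on dim probes (Sox2 and Sox9, both below background) and with the mean over probes. Called lower were 1 without the block for the animal pairing, under median scaling and with no filter, 4 under quantile normalization with and without normexp, and 0 under spike-in scaling by limma (0 at an unadjusted p under 0.05). Leaving out 1 animal gave 0 to 1 higher and 1 to 2 lower. Without the block Sox11 missed the threshold (adjusted p = 0.0502 by limma). Over all genes 5212 were called under spike-in scaling in place of 8705, and 7350 to 8245 without 1 animal. Spike-in scaling moved the median change of all genes from 0.07 to 0.23 and the 75th percentile of detected probes moved it to −0.04. Relative to that median Sox12 lay between −0.84 and −0.36 and Sox13 between 0.24 and 0.49 over the 14 alternatives. Signs turned for genes that were not called in the reported fit. Sox5 was −0.039 with the 75th percentile of detected probes. It was −0.37 under quantile normalization and −0.36 under normexp with quantile normalization, both called lower. With the mean over its probes Sox5 was 0.40 and called higher (limma adjusted p = 0.00768). Sox1 was 0.0086, 0.14 and 0.19 under median scaling, spike-in scaling and the mean over probes, and −0.21 to 0.33 without 1 animal. Sox10 was 0.037 under spike-in scaling, and Sox21 was 0.0027 and 0.13 under median and spike-in scaling and −0.13 to 0.045 without 1 animal. Sox2, Sox6, Sox8 and Sox9 are limited by signal over background.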
